A study of Mus musculus with 10 samples.

Results

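The guanylate-binding proteins (GBPs) of the mouse are encoded in a cluster on chromosome 3 and a second one on chromosome 5. The genes described here are Gbp2, Gbp3, Gbp5 and Gbp7 of the chromosome 3 cluster and Gbp4, Gbp6, Gbp8, Gbp9 and Gbp11 of the chromosome 5 cluster. They were taken by gene symbol from a table of RNA-seq counts, and they are 9 of its 56980 rows. The libraries came from macrophages of mice in 2 groups. In the first group Jaml, the gene of junctional adhesion molecule-like protein, was removed in macrophages (KO, 5 libraries), and in the second it was intact (WT, 5 libraries). Cells of both groups had been given lipopolysaccharide (LPS, 100 ng/ml for 8 h) and then ATP (5 mM for 30 min), and no unstimulated cells were analysed here. Titles and genotype tags differ on the first group, which is a knockout in the titles and a knockdown in the tags. The labels give no Cre driver, strain, age or tissue of origin for the cells.

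GBPs are large GTPases related to dynamin, and interferons switch on their genes through STAT and IRF transcription factors. In infected macrophages they gather on vacuoles that hold bacteria or parasites, and on bacterial LPS. There they assist the lysis of the vacuole and the activation of caspase-11 (gene Casp4) and of inflammasomes.

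Each library held 19319512 to 22766319 counts, 20670600 ± 1314730 in KO and 20506200 ± 759039 in WT (mean ± SD, n = 5 each). In the table, 5 columns bear WT names that match the labels, and the other 5 are headed SI, which no label explains. The SI columns were taken as KO by elimination, and KO 1 to KO 5 are the numbers of those columns. Every direction below rests on that assignment. Jaml itself gave no check, with 2 counts in KO 4, 2 in WT 1 and 0 in the other 8 libraries, all under a floor of 3 counts per library. The labels do not say whether the libraries of a group were separate mice or cultures, and the p-values cover the spread among these libraries alone, which may be technical. KO 1 and KO 3 stood apart from the other KO libraries on the second principal component, which held 17.7% of the variance. Leaving out both, an alternative added after the data were seen, left all 9 Gbp genes called. The 7 macrophage markers (Adgre1, Csf1r, Cd68, Itgam, Lyz2, Mertk and Fcgr1) summed to 21980 to 23993 CPM in KO libraries and 23131 to 24595 CPM in WT libraries. Lyz2 made up most of that sum. Of the 7 genes 1 was called higher and 2 lower, the latter including Fcgr1 at 59.1 ± 7.64 CPM in KO and 182 ± 10.7 CPM in WT. Over all genes tested, 14.1% were called higher and 15.0% lower, the background for this and the following marker lists. Among markers of other cells, 4 lists held genes that were called, though the summed fibroblast and mesothelial ranges overlapped between the groups. Summed fibroblast markers reached 584 to 736 CPM in KO against 538 to 598 CPM in WT, with 3 of 4 genes higher. Summed neutrophil markers reached 19.5 to 23.6 CPM in KO against 12.5 to 16.2 CPM in WT. Of the 4 neutrophil genes only 1 was tested, and it was called higher. The others had at most 3 counts in any library, so this sum describes 1 gene and not the list. Summed mast cell markers reached 3.31 to 4.47 CPM in KO against 6.40 to 11.5 CPM in WT, with 3 of 4 genes lower, and mesothelial markers 2.12 to 16.4 CPM in KO against 9.40 to 16.2 CPM in WT, with 1 of 4 genes lower. T cell and natural killer cell markers, with Cd3e and Ncr1 at 0 in every library, stayed at or below 0.302 CPM in sum. B cell markers summed to at most 0.553 CPM in KO and 1.02 CPM in WT, and dendritic cell markers, with Xcr1 and Siglech at 0, to at most 1.15 CPM in KO and 1.87 CPM in WT. The part of these cells in the Gbp differences was not tested.

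All 9 Gbp genes had less RNA in KO macrophages. Every one fell by edgeR's quasi-likelihood test (Benjamini-Hochberg adjusted p below 0.05 over the 14436 genes tested), which called 15.0% of genes lower and 29.1% in either direction. Each of the 9 fell by at least 2-fold, which 1.93% of tested genes did, and the 95% interval lay wholly past 2-fold for 6 of them, all but Gbp2, Gbp6 and Gbp8. For each of the 9, every KO library lay below every WT library, as for 12.4% of tested genes. The median log2 fold change (KO minus WT) was -1.33 over the 9 genes, -1.29 in the chromosome 3 cluster and -1.44 in the chromosome 5 cluster, beside 0.01 over all genes tested. Gbp8 passed the filter on low counts through its WT libraries, since KO 4 had 7 counts, under the minimum of 10. Levels are CPM, counts scaled by library size with the composition factor TMM, the trimmed mean of M values. In these bulk samples fewer cells with Gbp RNA and less Gbp RNA per cell cannot be told apart. Summed over the 9 genes, Gbp RNA was 1536 ± 189 CPM in KO and 3633 ± 237 CPM in WT (SD, n = 5 each). The sum was 2.37-fold lower in KO. As a share of the library counts, without TMM, the 9 genes held 0.160% in KO and 0.349% in WT, 2.18-fold lower in KO. The chromosome 3 genes summed to 1287 ± 180 CPM in KO and 3062 ± 192 CPM in WT, and the chromosome 5 genes to 249 ± 16.2 CPM in KO and 571 ± 73.7 CPM in WT. The chromosome 5 genes thus made up 16.4% ± 1.69 of the summed Gbp CPM in KO and 15.7% ± 1.56 in WT, a difference within the spread of either group.

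**Figure D1:**
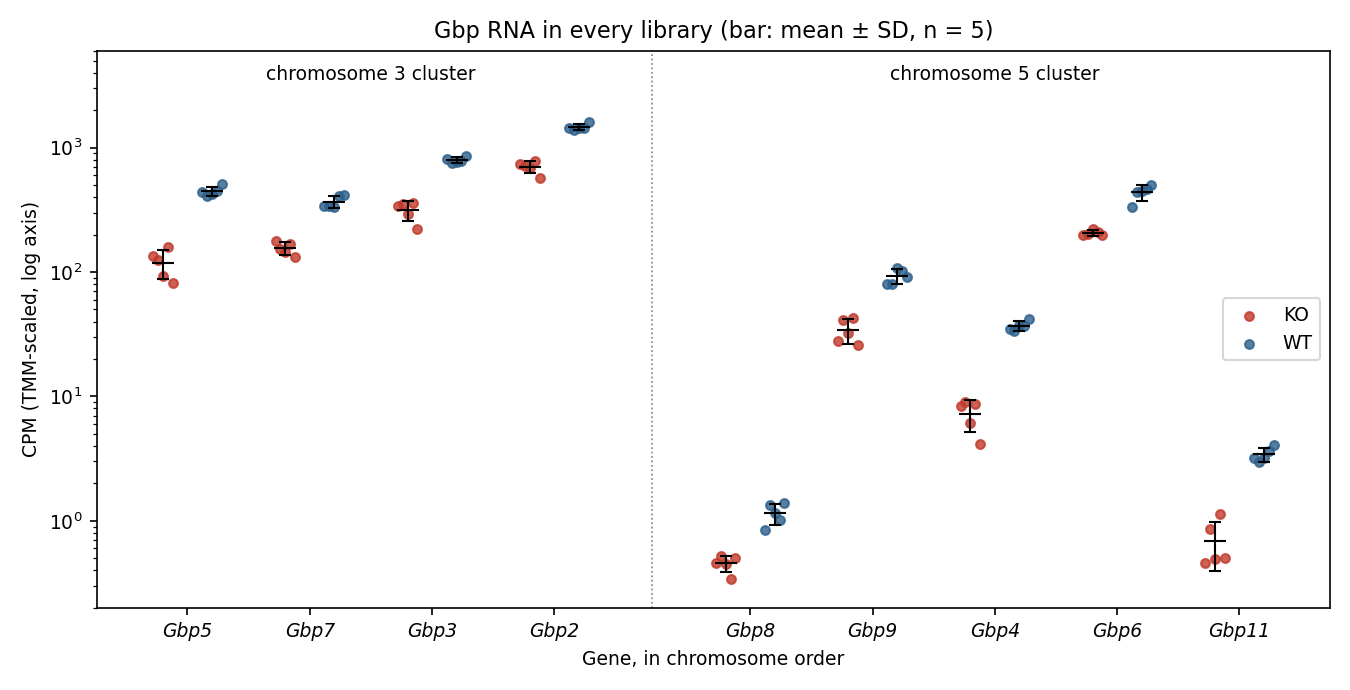
CPM (TMM-scaled, log axis) of the 9 Gbp genes in each of 5 KO (red, left) and 5 WT (blue, right) libraries, with mean ± SD bars, in chromosome order within each cluster. The KO points of each gene lie below its WT points, from Gbp2 at 699 CPM in KO and 1459 CPM in WT down to Gbp8 at 0.455 CPM in KO and 1.15 CPM in WT.

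In the chromosome 3 cluster the genes stand in the order Gbp5, Gbp7, Gbp3, Gbp2, all on the plus strand. Their promoter windows, the 250 bases before the annotated start, are shown because interferon acts on Gbp genes through elements close to the start. Capitals mark the letters of an interferon-stimulated response element (ISRE), searched as GAAA, any 2 bases and GAAA again, and of a gamma-activated site (GAS), searched as TTC, any 3 bases and GAA, both on either strand. The windows are those of RefSeq on build GRCm38.p6, plus strand, in the order Gbp5 (chr3:142496684-142496933), Gbp7 (chr3:142530086-142530335), Gbp3 (chr3:142559794-142560043) and Gbp2 (chr3:142620413-142620662).
Gbp5: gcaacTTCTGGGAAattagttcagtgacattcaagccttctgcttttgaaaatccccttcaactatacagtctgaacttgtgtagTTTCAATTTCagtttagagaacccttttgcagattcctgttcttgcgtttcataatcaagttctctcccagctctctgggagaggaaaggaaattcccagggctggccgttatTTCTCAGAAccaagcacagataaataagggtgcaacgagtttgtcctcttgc
Gbp7: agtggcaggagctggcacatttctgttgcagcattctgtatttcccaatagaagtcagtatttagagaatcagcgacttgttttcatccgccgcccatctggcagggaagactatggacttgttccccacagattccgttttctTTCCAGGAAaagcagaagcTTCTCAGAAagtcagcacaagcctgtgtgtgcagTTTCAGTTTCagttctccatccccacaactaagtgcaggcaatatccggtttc
Gbp3: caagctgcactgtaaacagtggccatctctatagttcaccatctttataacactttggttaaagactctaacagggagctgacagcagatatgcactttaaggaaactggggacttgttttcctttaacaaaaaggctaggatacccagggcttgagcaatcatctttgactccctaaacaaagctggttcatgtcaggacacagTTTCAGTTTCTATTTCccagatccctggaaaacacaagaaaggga
Gbp2: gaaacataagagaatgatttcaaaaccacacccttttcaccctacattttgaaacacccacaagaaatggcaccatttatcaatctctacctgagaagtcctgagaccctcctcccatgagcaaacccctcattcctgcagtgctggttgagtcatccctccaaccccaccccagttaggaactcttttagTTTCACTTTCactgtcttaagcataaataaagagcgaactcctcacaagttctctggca
All 4 windows hold ISRE letters, read on the minus strand, and the Gbp5 and Gbp7 windows hold GAS letters as well. In Gbp7, Gbp3 and Gbp2 the first base of the ISRE letters nearest the gene lies 53, 39 and 59 bases before the start, and in Gbp5 it lies 165 bases before it. In Gbp3 a pair of ISRE matches overlap each other, beginning 45 and 39 bases before the start. A second RefSeq window of Gbp3, at a later start, held neither motif. GAS letters begin 245 and 52 bases before the Gbp5 start and 106 and 87 bases before the Gbp7 start. Of 32851 RefSeq promoter windows of the same length, 2.98% held the ISRE letters, 7.02% the GAS letters and 0.332% both. A match describes the letters and does not show a bound site. The tables used held windows for these 4 of the 9 genes, and Gbp4, Gbp6, Gbp8, Gbp9 and Gbp11 were not searched.

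Gbp5 (ENSMUSG00000105504, chromosome 3, 142199739 to 142228105 as the table lists it) is known in mouse macrophages for promoting assembly of the NLRP3 and AIM2 inflammasomes. Its level was 135, 126, 93.6, 158 and 81.9 CPM in KO 1 to KO 5, against 436, 410.5, 425, 445 and 506 CPM in WT 1 to WT 5. The highest KO library, KO 4, lay well below the lowest WT library, WT 2. Gbp5 averaged 119 ± 30.9 CPM in KO and 444 ± 36.6 CPM in WT (SD, n = 5 each), 3.74-fold lower in KO, with a log2 fold change of -1.90 ± 0.16 (SE) and an edgeR adjusted p of 3.71e-06. Of the 4 genes of this cluster it had the lowest fold change, and its 95% interval, -2.25 to -1.56, lay below those of Gbp7 and Gbp2 and met that of Gbp3, -1.58 to -1.09, at its edge.

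Gbp2 (ENSMUSG00000028270, chromosome 3, 142326363 to 142343769) was the Gbp gene with the most RNA in both groups, and its protein limits the growth of Toxoplasma in mouse cells. It stood at 739.9, 709.6, 685, 787 and 574 CPM in KO 1 to KO 5, against 1429.6, 1389, 1436, 1436 and 1602 CPM in WT 1 to WT 5. The gap between the groups was wider than the span of either, with KO 5 the lowest library and WT 5 the highest. Gbp2 averaged 699 ± 79.6 CPM in KO and 1459 ± 82.7 CPM in WT (SD, n = 5 each), and its log2 fold change of -1.06 ± 0.07 (SE; 2.09-fold lower; edgeR adjusted p = 1.25e-06) had a 95% interval of -1.23 to -0.90. The interval includes a 2-fold fall, so Gbp2 meets the 2-fold threshold by a margin smaller than its error.

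Gbp3 (ENSMUSG00000028268, chromosome 3, 142265787 to 142278970) belongs to the same cluster, whose deletion as a whole leaves mice open to Toxoplasma. Its RNA was at 339, 351, 293, 362 and 223 CPM in KO 1 to KO 5, against 807, 753, 759, 777 and 859 CPM in WT 1 to WT 5. KO 5 was again the lowest library and WT 5 again the highest, and the groups did not overlap. Gbp3 averaged 314 ± 56.7 CPM in KO and 791 ± 43.6 CPM in WT (SD, n = 5 each), 2.52-fold lower in KO (log2 -1.33 ± 0.11, SE; edgeR adjusted p = 4.32e-06).

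Gbp7 (ENSMUSG00000040253, chromosome 3, 142236103 to 142255910) is known in mouse macrophages for helping to assemble the NADPH oxidase on phagosomes. It was at 178, 154, 146, 167 and 132 CPM in KO 1 to KO 5, against 342, 339, 335, 405 and 419 CPM in WT 1 to WT 5. The WT libraries formed a lower group of 3 (WT 1 to WT 3) and a higher pair (WT 4 and WT 5), and all KO libraries lay below both. Gbp7 averaged 155 ± 17.7 CPM in KO and 368 ± 40.4 CPM in WT (SD, n = 5 each), 2.37-fold lower in KO (log2 -1.25 ± 0.09, SE; edgeR adjusted p = 1.59e-06). The predicted pseudogene Gm43802, named after its values were seen, is a row of 637 bases inside Gbp7. It had 3, 708, 3, 662 and 3 counts in KO 1 to KO 5, against 1054, 1159, 1282, 3 and 3 counts in WT 1 to WT 5. Libraries thus had either 3 counts or at least 662 there, in both groups. The WT libraries with many counts were the 3 with less Gbp7. That pattern did not hold in KO, where KO 2 and KO 4, with many counts, had more Gbp7 than KO 3 and KO 5 and less than KO 1. With the Gm43802 counts added, Gbp7 reached 168 ± 27.8 CPM in KO and 404 ± 9.34 CPM in WT. The 5 WT libraries then lay between 394 and 419 CPM and the KO libraries between 133 and 199 CPM. The log2 fold change was -1.27 ± 0.10 (SE; edgeR adjusted p = 2.25e-06).

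The chromosome 5 genes lie on the minus strand. Gbp4 (ENSMUSG00000079363, chromosome 5, 105263633 to 105287452), reported in mouse to restrain the transcription factor IRF7, had the lowest fold change of the 9 genes. Its level was 8.34, 9.02, 6.09, 8.74 and 4.13 CPM in KO 1 to KO 5, against 34.6, 33.8, 37.3, 37.1 and 42.3 CPM in WT 1 to WT 5. No KO library came near the WT range, and KO 5 was the lowest. Gbp4 averaged 7.26 ± 2.10 CPM in KO and 37.0 ± 3.32 CPM in WT (SD, n = 5 each), 5.08-fold lower in KO, with a log2 fold change of -2.35 ± 0.17 (SE) and an edgeR adjusted p of 1.76e-06.

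Gbp11 (ENSMUSG00000092021, chromosome 5, 105470908 to 105494338) was near the limit of detection in KO. It had 10, 20, 11, 23 and 10 counts in KO 1 to KO 5, against 65, 56, 63, 71 and 82 counts in WT 1 to WT 5. The highest KO count was below the lowest WT count, and the KO libraries divided into 3 with 10 or 11 counts and 2 with 20 or more. Gbp11 averaged 0.690 ± 0.295 CPM in KO and 3.42 ± 0.437 CPM in WT (SD, n = 5 each), 4.93-fold lower in KO. Its log2 fold change of -2.30 ± 0.24 (SE; edgeR adjusted p = 1.93e-05) had the widest error of the 9 genes, and its interval of -2.82 to -1.79 overlapped that of Gbp4, -2.72 to -1.97.

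Gbp9 (ENSMUSG00000029298, chromosome 5, 105225496 to 105287405) was at 28.1, 40.9, 32.4, 43.1 and 25.9 CPM in KO 1 to KO 5, against 79.6, 79.9, 108, 102 and 91.9 CPM in WT 1 to WT 5. Both groups were spread widely for their level and still did not overlap. Gbp9 averaged 34.1 ± 7.62 CPM in KO and 92.3 ± 12.8 CPM in WT (SD, n = 5 each), 2.71-fold lower in KO (log2 -1.44 ± 0.15, SE; edgeR adjusted p = 1.92e-05). Gbp8 (ENSMUSG00000034438, chromosome 5, 105162016 to 105287406) was the scarcest, with 10, 12, 10, 7 and 10 counts in KO 1 to KO 5, against 17, 25, 23, 20 and 28 counts in WT 1 to WT 5. Its groups were separated by 5 counts, those between KO 2 and WT 1. Gbp8 averaged 0.455 ± 0.0686 CPM in KO and 1.15 ± 0.227 CPM in WT (SD, n = 5 each), with a log2 fold change of -1.32 ± 0.20 (SE; edgeR adjusted p = 0.000409), the largest adjusted p of the 9. Its 95% interval of -1.77 to -0.88 includes a 2-fold fall. Gbp8, Gbp9 and Gbp4 overlap on the chromosome and share 60 or 61 exonic bases in GENCODE M21, the annotation used to look at gene structure. Their counts were summed as an alternative added after the data were seen, and the sum fell to 41.8 ± 9.22 CPM in KO, against 130 ± 14.6 CPM in WT, with a log2 fold change of -1.64 ± 0.14 (SE; edgeR adjusted p = 4.67e-06).

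Gbp6 (ENSMUSG00000104713, chromosome 5, 105418568 to 105441564) had the most RNA of this cluster, and its protein protects mouse macrophages against mycobacteria and Listeria. It stood at 198, 203, 224, 211 and 198 CPM in KO 1 to KO 5, against 332, 440.4, 449, 467 and 500.1 CPM in WT 1 to WT 5. The 5 KO libraries were close together, and WT 1 lay apart below the other WT libraries but above every KO library. Gbp6 averaged 207 ± 10.9 CPM in KO and 438 ± 63.3 CPM in WT (SD, n = 5 each), 2.12-fold lower in KO (log2 -1.08 ± 0.09, SE; edgeR adjusted p = 4.62e-06), with a 95% interval of -1.28 to -0.88 that includes a 2-fold fall.

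The counts of Gbp6 cannot be wholly separated from those of its neighbours. Of the 50-base words in GENCODE M21 transcripts of Gbp6, 29.4% occurred in no other gene, and 65.0% also occurred in Gm43302, a predicted row that spans Gbp10 and Gbp6. The share of unique words was 80.8% to 98.6% in the other 8 genes, lowest in Gbp11 and highest in Gbp5. Gm43302, named after its position was seen, averaged 71.6 ± 7.61 CPM in KO and 142 ± 8.27 CPM in WT, with a log2 fold change of -0.99 ± 0.07 (SE). Of the 50-base words of Gm43302, 0% were unique and 93% also occurred in Gbp6. Gbp10, which acts beside Gbp6 against bacteria, averaged 14.0 ± 2.89 CPM in KO and 26.4 ± 1.89 CPM in WT, with a log2 fold change of -0.91 ± 0.12 (SE; edgeR adjusted p = 0.000188). Of its 50-base words 15.9% were unique. Summing the 3 rows, again after the data were seen, gave 292 ± 14.9 CPM in KO and 606 ± 64.3 CPM in WT and a log2 fold change of -1.05 ± 0.07 (SE; edgeR adjusted p = 9.03e-07).

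Gbp2b, the mouse gene also known as Gbp1, was the Gbp gene of the table that did not pass. It lies between Gbp3 and Gbp2 in the chromosome 3 cluster and was at 1.15, 1.08, 2.15, 0.982 and 1.71 CPM in KO 1 to KO 5, against 1.43, 1.55, 1.31, 2.05 and 1.89 CPM in WT 1 to WT 5. The groups overlapped over most of their range. Its log2 fold change was -0.22 ± 0.24 (SE), with a 95% interval of -0.74 to 0.30 and an edgeR adjusted p of 0.546. Its promoter window also held ISRE letters, 137 bases before the start, and 98.2% of its 50-base words were unique. The pseudogene Gbp2-ps had 0 counts in all 10 libraries.

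**Figure D2:**
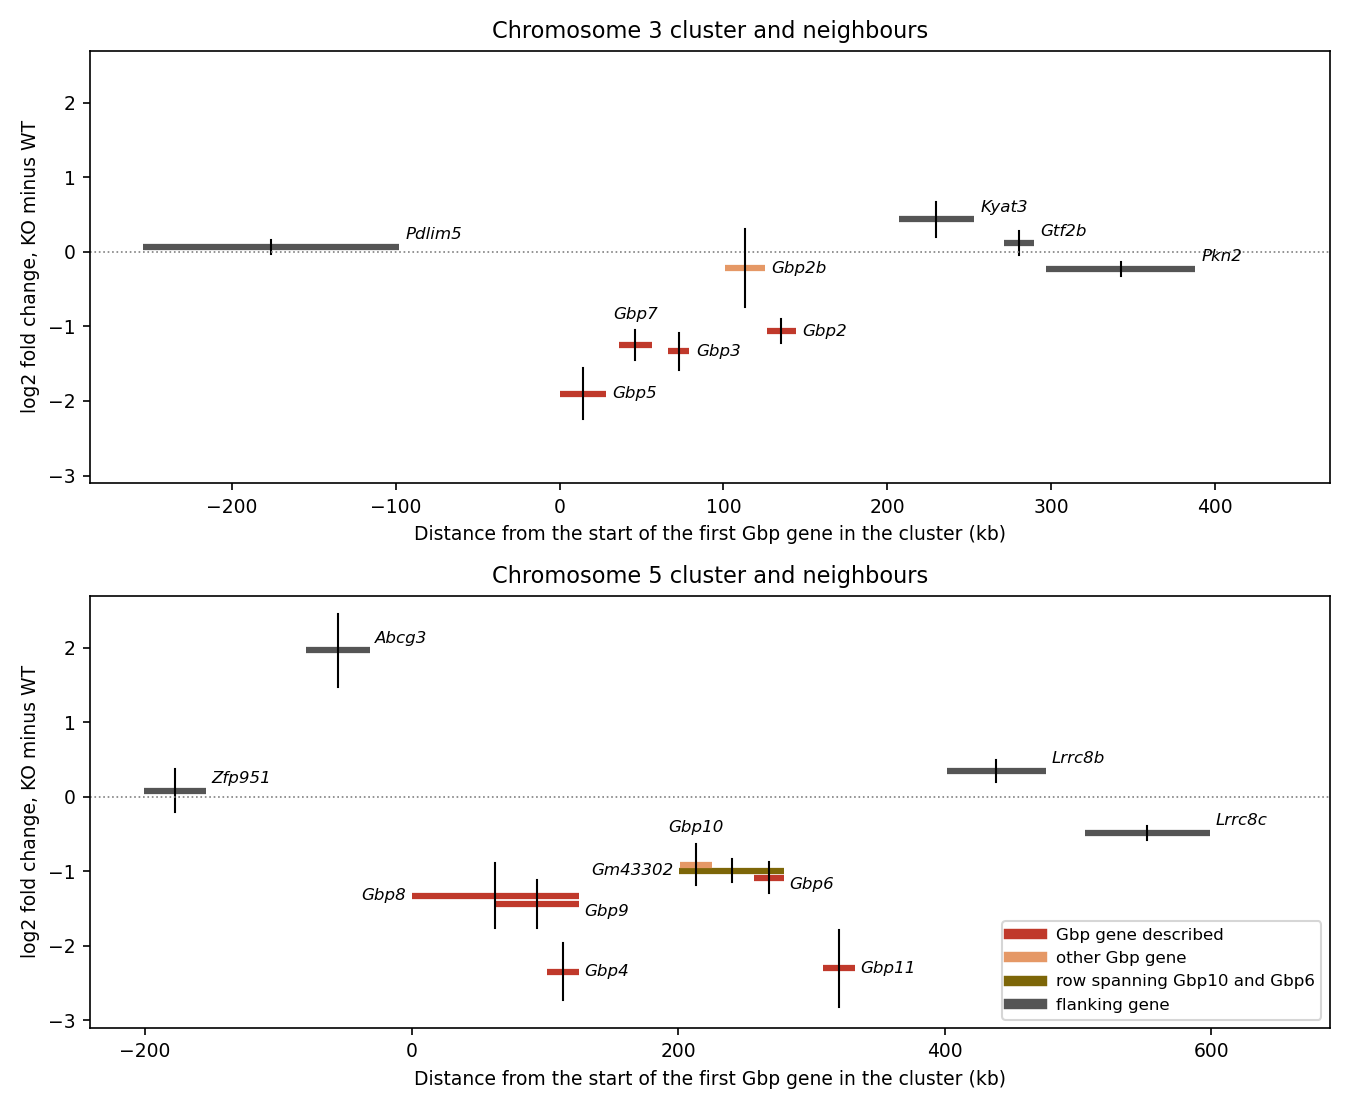
Log2 fold change (KO minus WT) against position along the chromosome 3 cluster (top) and the chromosome 5 cluster (bottom), as distance in kb from the start of the first Gbp gene. Horizontal bars span each gene and vertical lines are 95% intervals. The 9 genes described (red) lie between -1.06 and -2.35, Gbp2b at -0.22, and Abcg3 beside the chromosome 5 cluster at 1.97. Lrrc8d, Thoc2l, Gm43802 and the genes not tested are not drawn.

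No tested gene among the 3 nearest named genes on each side of each cluster fell by as much as any of the 9 Gbp genes. Beside the chromosome 3 cluster, Pdlim5 had a log2 fold change of 0.07 ± 0.04 (SE; edgeR adjusted p = 0.247) and Gtf2b, a general transcription factor, 0.12 ± 0.07 (edgeR adjusted p = 0.257). Kyat3, a kynurenine aminotransferase 63.0 kb from the cluster, was 5.06 ± 0.458 CPM in KO and 3.74 ± 0.417 CPM in WT and rose by 0.44 ± 0.11 on the log2 scale (edgeR adjusted p = 0.00836). Pkn2, a protein kinase, fell by 0.23 ± 0.04 on the log2 scale (edgeR adjusted p = 0.00208), and that call was lost under library totals. Unc5c and Bmpr1b had too few counts to be tested.

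On chromosome 5 the nearest gene, Abcg3, lies 31.4 kb from Gbp8 and encodes a transporter of the ABC family. Abcg3 went the other way, with 2.40 ± 0.383 CPM in KO and 0.610 ± 0.210 CPM in WT (SD, n = 5 each), a log2 fold change of 1.97 ± 0.22 (SE) and an edgeR adjusted p of 4.43e-05, with no overlap between groups. Zfp951 and Thoc2l, farther out on that side, had log2 fold changes of 0.08 ± 0.13 and -0.05 ± 0.10 (edgeR adjusted p = 0.688 and 0.784). On the other side lie genes for subunits of volume-regulated anion channels. Lrrc8b rose by 0.35 ± 0.07 on the log2 scale (edgeR adjusted p = 0.00226), and Lrrc8c fell by 0.48 ± 0.04 on that scale (edgeR adjusted p = 7.63e-06). Lrrc8d averaged 123 ± 137 CPM in KO and 76.2 ± 111 CPM in WT, with an SD above the mean in both groups (edgeR adjusted p = 0.649).

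Levels per gene length put the 9 genes in the same order of means in both groups. They are given as RPKM, counts scaled by gene length and by the library total without TMM, so they serve to compare genes within a group and not the groups. In KO the order was Gbp2 at 257 ± 30.4 RPKM, Gbp3 at 53.8 ± 9.71, Gbp7 at 24.7 ± 3.07, Gbp6 at 24.2 ± 1.57, Gbp5 at 12.3 ± 3.17, Gbp9 at 3.71 ± 0.787, Gbp4 at 0.848 ± 0.242, Gbp11 at 0.265 ± 0.110 and Gbp8 at 0.0871 ± 0.0129 RPKM (SD, n = 5 each). Gbp7 and Gbp6 overlapped, and no other neighbours in that order did. In WT the order was Gbp2 at 494 ± 24.0 RPKM, Gbp3 at 125 ± 6.19, Gbp7 at 54.0 ± 5.71, Gbp6 at 47.3 ± 6.61, Gbp5 at 42.7 ± 3.20, Gbp9 at 9.30 ± 1.25, Gbp4 at 3.99 ± 0.323, Gbp11 at 1.22 ± 0.148 and Gbp8 at 0.203 ± 0.0393 RPKM. Gbp7 overlapped Gbp6 there, and Gbp6 overlapped Gbp5. Gbp5 thus stood clear below Gbp6 in KO and within its range in WT. The lengths used were 9993, 8877 and 6541 bases for Gbp5, Gbp6 and Gbp7, where GENCODE M21 gives 6637, 5954 and 5614 exonic bases. The order among these genes depends on the lengths chosen.

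The make-up of the family's RNA differed between the groups, a measure that does not depend on the scaling between libraries. Gbp2 held 45.6% ± 0.730 of the summed counts of the 9 genes in KO and 40.2% ± 0.80 in WT (SD, n = 5 each), with every KO library above every WT library. Gbp5 held 7.64% ± 1.16 in KO and 12.2% ± 0.326 in WT, and every KO library lay below every WT library. The scarce Gbp4 and Gbp11 were likewise below WT in all KO libraries, Gbp4 with 0.465% ± 0.0924 in KO and 1.02% ± 0.0313 in WT, and Gbp11 with 0.0443% ± 0.0151 in KO and 0.0939% ± 0.00615 in WT. The shares of the other 5 genes overlapped. Gbp3 held 20.3% in KO and 21.8% in WT, Gbp6 13.6% in KO and 12.0% in WT, Gbp7 10.1% in both, Gbp9 2.21% in KO and 2.54% in WT, and Gbp8 0.0303% in KO and 0.0316% in WT. With counts divided by the same gene lengths, Gbp2 held 68.2% in KO and 63.6% in WT. Gbp5 then held 3.24% in KO and 5.48% in WT, and Gbp3, at 14.2% in KO and 16.1% in WT, no longer overlapped. These shares are a description with no test, and a larger share of 1 gene lowers those of the rest.

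**Figure D3:**
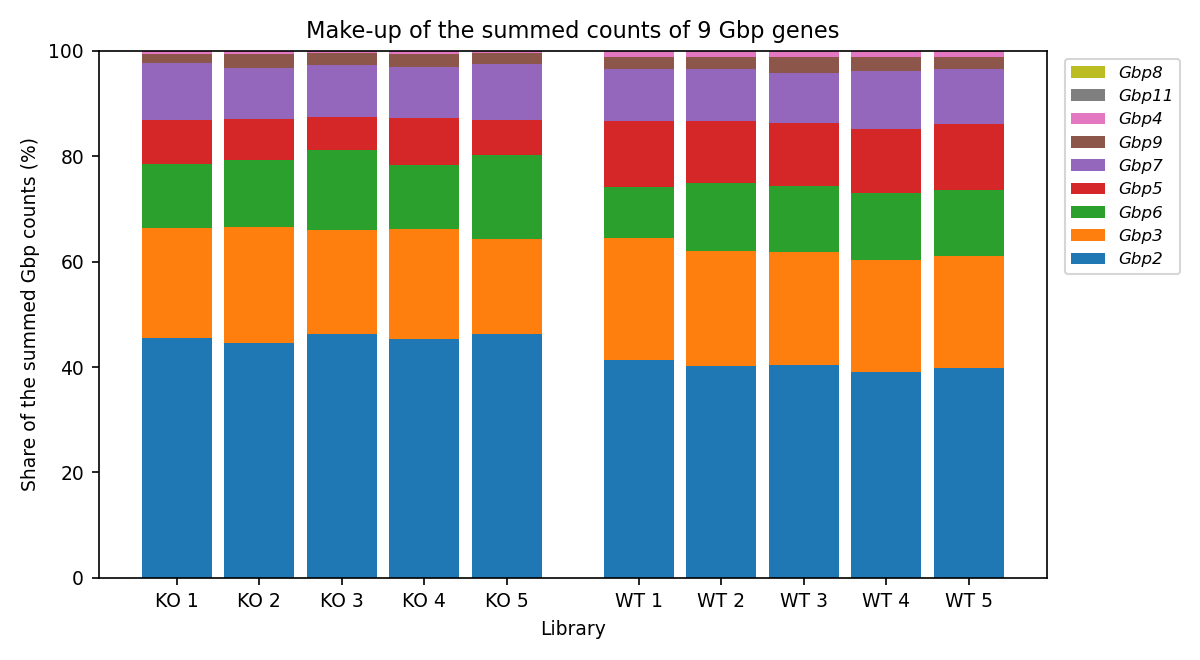
Share (%) of the summed counts of the 9 Gbp genes held by each gene, as stacked bars for 5 KO libraries (left) and 5 WT libraries (right). The Gbp2 segment (blue, bottom) is 45.6% on average in KO and 40.2% in WT, and the Gbp5 segment (red) 7.64% in KO and 12.2% in WT.

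Within a group the 9 genes varied together to a degree. As log2 deviations from the group mean, KO 5 was the lowest KO library for 7 of the 9 genes, with Gbp8 and Gbp11 as the exceptions, and averaged -0.31 over the genes. KO 4 was the highest KO library for 5 of them and averaged 0.23. In WT, WT 5 was the highest library for 8 of the 9 genes, all but Gbp9, and averaged 0.18. WT 2 was the lowest WT library for 5 genes and averaged -0.07. WT 1 was the lowest for 3 genes and averaged -0.14, with Gbp6 and Gbp8 at -0.38 and -0.39. The libraries of a group thus differed in the level of most Gbp genes at once, by less than the distance between the groups. KO 5 also lay farthest from the WT libraries on the first principal component of all genes, which separated the groups.

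**Figure D4:**
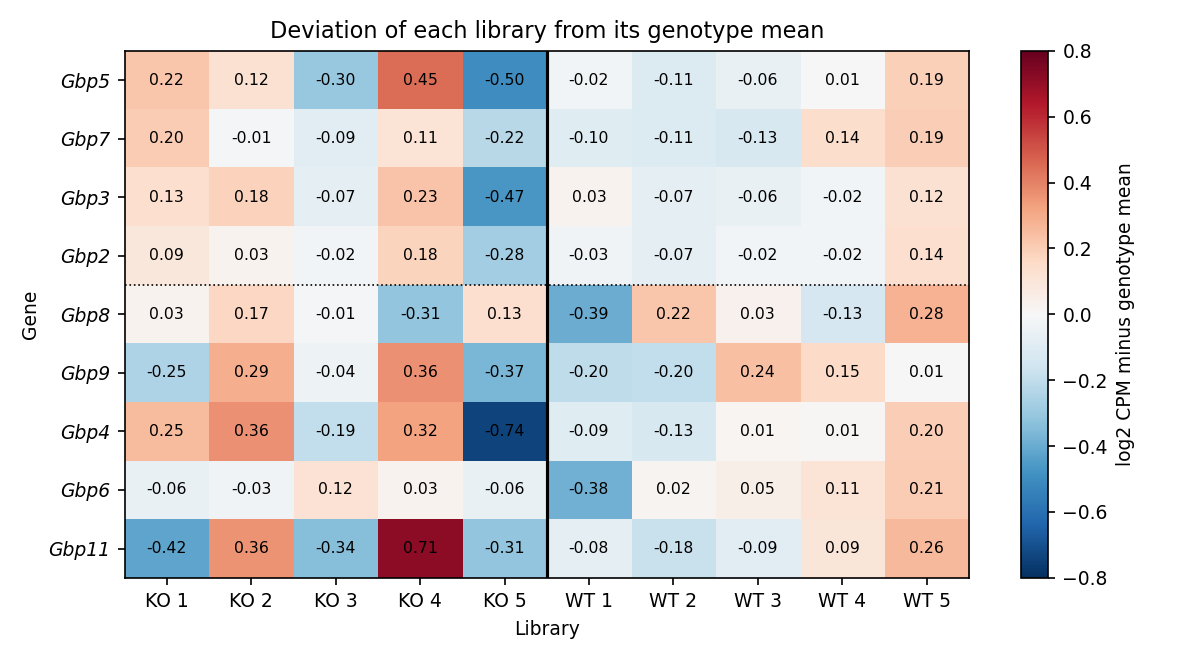
Deviation of log2 CPM from the mean of its group for each Gbp gene (rows, in chromosome order) in 5 KO libraries (left of the line) and 5 WT libraries (right), red above and blue below the mean. The KO 5 column is below the mean for 8 of the 9 genes and the WT 5 column is above it for all 9.

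Outside the family, 11896 genes whose log2 CPM averaged 1 or more were ranked by how closely their deviations from the group means followed the mean deviation of the 9 Gbp genes over the 10 libraries. Libraries share their depth and scaling across genes, so the correlations are given as a description. Fcgr1, the high-affinity IgG receptor, followed them most closely (Pearson r = 0.980). It had a log2 fold change of -1.62 ± 0.08 (SE; edgeR adjusted p = 1.76e-07). Next came Etnk1, an ethanolamine kinase (r = 0.964, log2 fold change -0.95), the very large interferon-inducible GTPase gene Gvin2 (r = 0.963, -1.47), the ubiquitin ligase gene Herc6 (r = 0.958, -1.14) and Stat2 (r = 0.957, -1.09). All 5 were called lower in KO by edgeR, as were 15.0% of all tested genes. The ranking used deviations from the group means, and a shared cause was not tested.

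Genes of the interferon pathway that controls Gbp genes fell in part. Of 19 listed, 17 were tested, 10 fell, 0 rose and 7 did not pass, with a median log2 fold change of -0.14. The median over all genes was 0.01, and edgeR called 15.0% of tested genes lower and 14.1% higher. The ligand genes Ifnb1 and Ifng were not tested, with at most 1 and 3 counts in a KO library and at most 2 and 3 in a WT library. Among receptor chains, Ifnar1 (129 ± 20.9 CPM in KO and 124 ± 14.9 CPM in WT), Ifnar2 (222 ± 9.29 in KO and 213 ± 10.1 in WT) and Ifngr1 (44.4 ± 6.40 in KO and 36.1 ± 6.18 in WT) did not pass, while Ifngr2 fell by 0.12 on the log2 scale (edgeR adjusted p = 0.0375). The Ifngr2 call was lost under 11 of 19 alternatives, among them leaving out KO 1, KO 3, KO 4, KO 5, WT 1, WT 3 or WT 5, with an adjusted p of up to 0.980. Of the kinases, Tyk2 fell to 121 ± 6.62 CPM in KO, against 210.4 ± 9.41 CPM in WT (log2 -0.80 ± 0.05, SE), and Jak1 and Jak2 fell by 0.14 and 0.23 on the log2 scale. Both of these calls were lost under library totals, and that of Jak2 also without KO 1 and KO 3.

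The transcription factors of the pathway divided into those that fell with the Gbp genes and those that did not pass. Stat2 fell to 129 ± 15.6 CPM in KO, against 274 ± 9.47 CPM in WT (log2 -1.09 ± 0.07, SE). Irf1, a direct activator of Gbp genes in mouse, fell to 40.0 ± 5.08 CPM in KO, against 84.3 ± 3.33 CPM in WT (log2 -1.08 ± 0.08). Irf7 fell to 221 ± 35.5 CPM in KO, against 489.8 ± 11.4 CPM in WT (log2 -1.15 ± 0.10). Irf9, a DNA-binding partner of STAT2, fell by 0.26 ± 0.06 on the log2 scale. Irf2 (32.1 ± 5.29 CPM in KO and 32.9 ± 2.47 CPM in WT), Irf3 (19.5 ± 1.26 CPM in KO and 21.2 ± 1.07 CPM in WT) and Irf8 (122 ± 37.7 CPM in KO and 122 ± 31.8 CPM in WT) did not pass. Of the inhibitors of the pathway, Usp18 fell to 177 ± 35.1 CPM in KO, against 489.5 ± 7.01 CPM in WT (log2 -1.47 ± 0.12), and Socs1 did not pass (14.7 ± 2.49 CPM in KO and 15.7 ± 1.39 CPM in WT). The edgeR adjusted p of the called genes in this paragraph ran from 1.01e-06 for Stat2 to 0.00607 for Irf9.

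The immunity-related GTPases (IRGs), smaller interferon-inducible GTPases that act on the same vacuoles as GBPs, fell throughout. All 7 tested genes of 8 listed were called lower, as were 15.0% of all tested genes, and in all 7 every KO library lay below every WT library, as in 12.4% of all tested genes. The median log2 fold change was -1.42, and Irgc1 had at most 4 counts in a library and was not tested. Iigp1 fell to 6.78 ± 2.01 CPM in KO, against 53.6 ± 5.35 CPM in WT (SD, n = 5 each), a log2 fold change of -2.98 ± 0.17 (SE; edgeR adjusted p = 3.66e-07). Tgtp1 and Tgtp2, near-identical genes between which reads may have been split, had log2 fold changes of -1.95 ± 0.15 and -1.99 ± 0.15. The regulatory members Irgm1, Irgm2 and Igtp (also called Irgm3), which guard the cell's own membranes, had -0.94 ± 0.07, -1.09 ± 0.10 and -1.42 ± 0.11, and Gm12250 had -1.39 ± 0.11.

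Among inflammasome genes downstream of GBPs, 6 of 8 fell and 2 rose, with a median log2 fold change of -0.65, where 15.0% of all tested genes were called lower and 14.1% higher. Casp4, the LPS-sensing caspase-11 of the mouse, fell to 45.6 ± 4.63 CPM in KO, against 86.8 ± 3.87 CPM in WT (log2 -0.93 ± 0.07, SE; edgeR adjusted p = 1.61e-06). Gsdmd, whose product forms the pore of pyroptosis, Casp1, the sensor gene Nlrp3 and the cytokine gene Il18 had log2 fold changes of -0.60 ± 0.05, -0.71 ± 0.08, -0.76 ± 0.09 and -1.72 ± 0.15. Pycard, the adaptor ASC, rose to 92.7 ± 4.37 CPM in KO, against 58.8 ± 5.16 CPM in WT (log2 0.66 ± 0.06; edgeR adjusted p = 8.33e-06). Aim2 (log2 -0.35 ± 0.12, edgeR adjusted p = 0.0421) and Il1b (log2 0.26 ± 0.09, edgeR adjusted p = 0.0421) passed narrowly with overlapping groups. The Aim2 call was lost under 11 of 19 alternatives, among them leaving out any library other than KO 4 or WT 3, and the Il1b call under 9, among them leaving out KO 1, KO 4, KO 5, WT 1, WT 2, WT 3 or WT 4, with an adjusted p of up to 0.155 for Aim2 and 0.0946 for Il1b.

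Of 10 genes for LC3 conjugation, the machinery that places GBPs on vacuoles in mouse cells, 4 rose, 0 fell and 6 did not pass, with a median log2 fold change of 0.13, where edgeR called 14.1% of all tested genes higher and 15.0% lower. One of the 4, Gabarapl1 (edgeR adjusted p = 0.0454), was named after its values were seen and lost its call under 9 of 19 alternatives, among them leaving out KO 1, KO 2, KO 3, KO 4, WT 2, WT 3 or WT 5. Map1lc3b rose by 0.25 ± 0.04, Atg5 by 0.21 ± 0.04 and Atg7 by 0.32 ± 0.08 on the log2 scale (edgeR adjusted p = 0.000505, 0.00116 and 0.00875). Of 6 prenylation genes, whose enzymes add and finish the lipid anchor of Gbp2 and Gbp5, only Fnta passed, higher by 0.30 ± 0.06 on the log2 scale, a count near the 14.1% of all tested genes called higher, and the median was 0.05. Of 12 tested genes for other large GTPases 4 fell, beside 15.0% of all tested genes, and the median was -0.04. The interferon-inducible Mx1, Mx2 and Gvin1 had log2 fold changes of -2.19 ± 0.19, -1.75 ± 0.14 and -1.48 ± 0.12. The remaining large GTPase that fell, Atl3, named after its values were seen, did so by 0.19 on the log2 scale and was not called under library totals, and the dynamin and mitofusin genes did not pass. Library totals in place of TMM moved the median of all genes to 0.12. Of the 14436 genes tested, 4231 were then called higher and 1361 lower. In that setting 2 of 17 interferon pathway genes were called higher and 7 lower. Of the LC3 genes 7 of 10, and of the prenylation genes 3 of 6, were called higher. The median of the large GTPases then turned to 0.08, while the IRG count stayed at 7 lower.

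**Figure D5:**
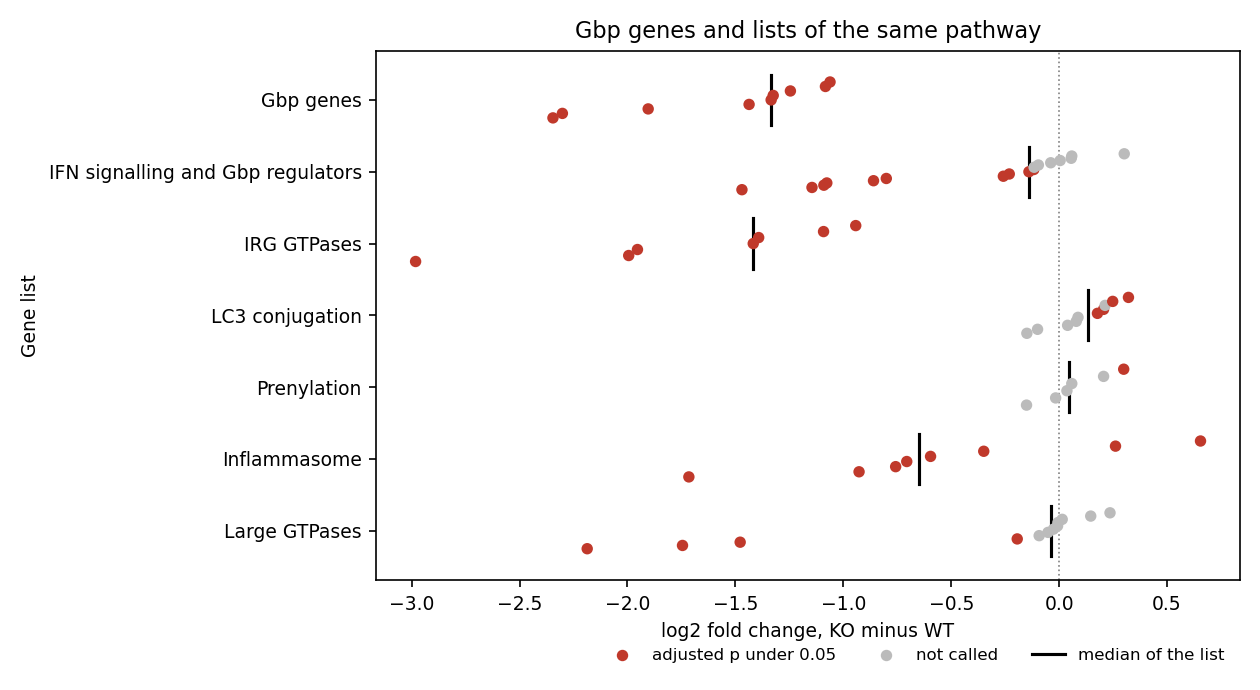
Log2 fold change (KO minus WT) of the 9 Gbp genes and of the tested genes of 6 lists, 1 point per gene, red where the edgeR adjusted p was under 0.05 and grey otherwise, with a black line at each list's median. The Gbp genes (median -1.33) and the IRG GTPases (-1.42) lie wholly left of 0, and the LC3 conjugation (0.13) and prenylation (0.05) genes lie around 0.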

How the data were processed

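RNA-seq gene counts of 5 KO and 5 WT macrophage libraries were analysed. The authors deposited a table with whole-number counts for each gene in each library and, per the file headers, FPKM beside them. The deposited FPKM of the WT columns gave the gene lengths used for RPKM, and 5 FPKM columns were not used. CASAVA 1.8 and TopHat2 2.0.6 are named without a role, as are the builds mm10 and GRCm39, per the submitters' processing notes. How genes were counted, with which annotation and strand setting, is not given in the sources used here, so overlapping genes cannot be told apart by strand. Positions are as the table lists them: the 9 Gbp genes had the span, but not the start, of GENCODE M21 on GRCm38. Of the 56980 rows, 1542 had no symbol.

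Counts were tested in R 4.3.3 with edgeR 4.0.16 (TMM factors, then the quasi-likelihood F test without covariates, on genes kept by filterByExpr at a minimum count of 10), with Benjamini-Hochberg adjustment over 14436 genes that held 99.87% of counts and calls at an adjusted p under 0.05. The log2 CPM used a prior count of 2. A floor of 3 counts was 0.132 to 0.155 CPM, for counting error alone. Libraries were checked for duplicates and none was found: the lowest chi-square per gene was 9.98 within and 40.8 between groups. The procedure was tested on simulated data. Alternatives were DESeq2 size factors, library totals, no filter, at least 50 counts required in 5 libraries, a replicate block, the DESeq2 1.42.0 Wald test, limma-voom (3.58.1) and each library left out in turn.

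The Gbp genes, pathway lists, markers and tests were chosen with earlier results of these data known. Named were the 9 Gbp genes, other Gbp rows, the interferon, IRG and inflammasome lists, from the other lists up to 3 genes each by p, the 3 nearest named genes on each side of each cluster, and the 5 genes most like the Gbp mean. A result on 1 gene of the interferon list is not reported here.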

Additional observations from a re-analysis of the deposited data

Results flagged for a closer look

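Of 90 sets of 5 values examined, 7 held a highest or lowest library whose gap to the next was large for the range of its group; chance gives about 1 in 20. Among the Gbp genes this was Gbp2, at 1602 CPM in WT 5 beside 1389 to 1436 CPM in the other WT libraries. In WT 5 it was also Jak2, at 469 CPM beside 394 to 402 CPM, and the GTPase gene Tgtp2, at 108 CPM beside 92.2 to 94.0 CPM. In KO 5, the KO library with the least Gbp RNA, Ifnar1 stood at 165 CPM beside 114 to 129 CPM, Ifngr1 at 33.2 CPM beside 45.9 to 49.1 CPM and Gsdmd at 80.0 CPM beside 90.2 to 93.0 CPM in the other KO libraries. In KO 3, Irf3 stood at 17.3 CPM beside 19.8 to 20.5 CPM.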

How the results depend on the processing

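The 9 Gbp genes were called lower under every alternative run, except that Gbp8 was not tested with at least 50 counts required in 5 libraries, where 8 of 8 were called. All 170 values kept their direction and their call, although with overlapping rows summed those of Gbp4, Gbp6, Gbp7, Gbp8 and Gbp9 belong to summed rows. The number of genes called was 4200, and ran from 3744 with no filter to 5592 with library totals, and from 3765 to 4085 with 1 library left out. Library totals called 4231 genes higher and 1361 lower, beside 2036 and 2164 with TMM, and moved the median over all genes to 0.12, beside 0.01 (log2). The fall of Gbp2 (-0.94) and Gbp6 (-0.97) then came to less than 2-fold, leaving 7 of 9 past it, as did that of Gbp2 without KO replicate 5, leaving 8. With the rows of Gbp8, Gbp9 and Gbp4 summed, each had the same value by construction, -1.64, in place of -1.32, -1.44 and -2.35. With the replicate block, 3780 genes and the 9 Gbp genes were called. Same-numbered libraries correlated between -0.11 and 0.18 in their deviations, 1 of 5 pairs over 0.1. Of 10 libraries, 3 correlated best with their own number. Such weak correlations do not settle whether libraries were paired by number, and the labels do not say. For the shares of summed Gbp counts, division by gene length moved most values by more than their spread. Gbp8 and Gbp11 have the least depth, with 7 to 12 and 10 to 23 counts in KO.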
